A study of Homo sapiens with 9 samples.

Results

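Messenger RNA of 33 genes of NF-kB signalling, comprising cytokines, chemokines, the NF-kB subunits and their inhibitors, was followed on 9 arrays of an insulin-resistant hepatoma line given biomineralized insulin, insulin or plain medium. The genes were chosen by name and matched to the array by current symbol or alias, out of 18132 genes that had a probe set assigned to 1 gene. Of the 33 genes, 32 had such a probe set. A brightness filter left out probe sets with a mean below 4.74 log2 over the 9 arrays, and 24 of the genes passed it and entered the fit over 12240 genes. TNF, IL1R1, CXCL3, CXCL5, CXCL6, CCL2, ICAM1 and TRAF1 lay below the filter and were tested only in a fit without it. SOD2 was covered only by probe sets annotated to a second symbol as well, so no value is given for it.

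All cells were R-HepG2 per the protocols, an insulin-resistant form of the human hepatoma line HepG2, kept overnight without serum and then exposed for 4 h. The groups were biomineralized insulin at 40 ug/ml of insulin, insulin at 40 ug/ml, and DMEM alone as the medium control, with 3 arrays each. The cell line tag reads HepG2 for both treated groups and R-HepG2 for medium, so in comparisons with medium that difference and the treatment cannot be told apart, while both treated groups carry the same tag. No group received the mineral component alone. Whether the 3 replicates of a group came from separate cultures is not stated in the labels, and the error behind each p-value may thus be technical. The comparisons share arrays with each other.

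NF-kB factors are dimers of the proteins encoded by RELA, RELB, REL, NFKB1 and NFKB2, held inactive in the cytoplasm by IkB inhibitors. Signals from interleukin 1, TNF and Toll-like receptors activate a kinase complex that marks IkB for destruction, and the freed dimers switch on cytokine and chemokine genes together with genes of their own inhibitors, such as NFKBIA and TNFAIP3. In liver cells, interleukin 1 and interleukin 6 drive the acute phase response, and inflammatory signalling of this kind is known to interfere with insulin receptor signalling.

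Array medians lay between 5.46 and 5.50 log2, and the first principal component, with 78.4% of the variance, set the 3 arrays of biomineralized insulin apart from the insulin and medium arrays. The labels name liver, but transcripts that define hepatocytes were dim. ALB, the gene of albumin, averaged 3.41 ± 0.25 log2 with biomineralized insulin, 3.49 ± 0.09 with insulin and 3.28 ± 0.02 in medium (SD, n = 3 each), and only 4 of 13 measured hepatocyte markers passed the brightness filter, APOA1, TTR and AHSG being the brightest. AFP and APOB lay below the filter as well, so the defining markers of the cell type named in the labels were not seen above it. Above the filter were 4 of 11 leukocyte, 5 of 7 endothelial, 6 of 8 stromal and 5 of 8 lung epithelial markers. The mean level of the leukocyte list ranged from 4.26 to 4.29 log2 with biomineralized insulin and from 4.16 to 4.31 in medium. None of its 4 tested genes was called, beside 50.9% of all genes tested against medium. Its brightest genes, CD68, TYROBP and CSF1R, averaged 7.41, 6.04 and 5.24 with biomineralized insulin, against 7.31, 5.95 and 5.31 in medium, while CD14 (2.93 against 2.98) and PTPRC (2.75 against 2.81) lay below the filter. The lung epithelial list averaged 5.26 ± 0.04 log2 with biomineralized insulin, above every one of the medium arrays, which averaged 5.12 ± 0.05 (SD, n = 3 each). A two-sided exact permutation test gave p = 0.1, which groups of 3 cannot go below, or 0.343 after adjustment for 24 such tests. NKX2-1, a thyroid and lung transcription factor, was called higher in that comparison (0.59 ± 0.07 log2 (SE), adjusted p = 4.8e-06), while SCGB3A2 and NAPSA, brightest of the list with it, were not called. Of the stromal list, 3 of 6 tested genes were called against medium, beside 50.9% of all genes tested. DCN was higher (0.32 ± 0.05, adjusted p = 1.1e-04), but below 0 with spike-in centring. PDGFRB (-0.42 ± 0.08, adjusted p = 1.7e-04) and COL1A1 (-0.20 ± 0.08, adjusted p = 0.0495) were lower, while COL3A1 was not called. Of the endothelial list, 1 of 5 was called, beside the same 50.9%. It was ERG (0.43 ± 0.12, adjusted p = 0.0054), and the brightest, PECAM1, VWF and CDH5, were not called. What part these cell types have in the results was not tested. Control transcripts spiked into the RNA, the poly-A controls, averaged 7.62 ± 0.16 log2 with biomineralized insulin and 7.22 ± 0.07 in medium (SD, n = 3 each). Centring the arrays on these controls moved every difference between biomineralized insulin and medium by -0.40 and every difference between biomineralized insulin and insulin by -0.39, so that a smaller positive difference falls below 0 under it.

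The cytokine and chemokine transcripts IL1A, IL6, CXCL2 and CXCL8 were lower with biomineralized insulin by the widest margins, while NFKBIZ and NFKBIA, which encode IkB family proteins, were called higher on the deposited scale but not after spike-in centring. Against medium, 15 of the 24 tested genes passed an adjusted p under 0.05 in the limma fit, beside 50.9% of all genes tested. Of these, 12 were lower, 50% of the genes beside 25.2% of all genes, and 3 were higher, 12.5% beside 25.7%. The median difference of the 24 genes was -0.09 log2, beside 0.02 over all genes. At a change of at least 1.5-fold, 4 of the 24 genes were called, beside 7.11% of all genes. Against insulin, 11 genes were called, beside 44.4% of all genes, with 8 lower (33.3%, beside 23.3%) and 3 higher (12.5%, beside 21.1%), a median of -0.04 log2 (0.02 over all genes) and 6 genes at 1.5-fold or more (5.2% of all genes). With insulin against medium, 2 of the 24 genes were called, beside 2.45% of all genes: PTGS2 higher (1.25% of all genes) and CXCL2 lower (1.2%), with a median of -0.02 log2 (0.01 over all genes). With the arrays centred on the spike-in controls, 19 genes were called lower and none higher against medium, beside 9120 genes lower and 273 higher among all, and 20 lower and none higher against insulin, beside 9446 lower and 165 higher. Because calls were this common among all genes, the sizes of the differences are given for each gene. In RNA from whole cultures, fewer cells expressing a gene and less RNA per cell cannot be told apart.

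**Figure D1:**
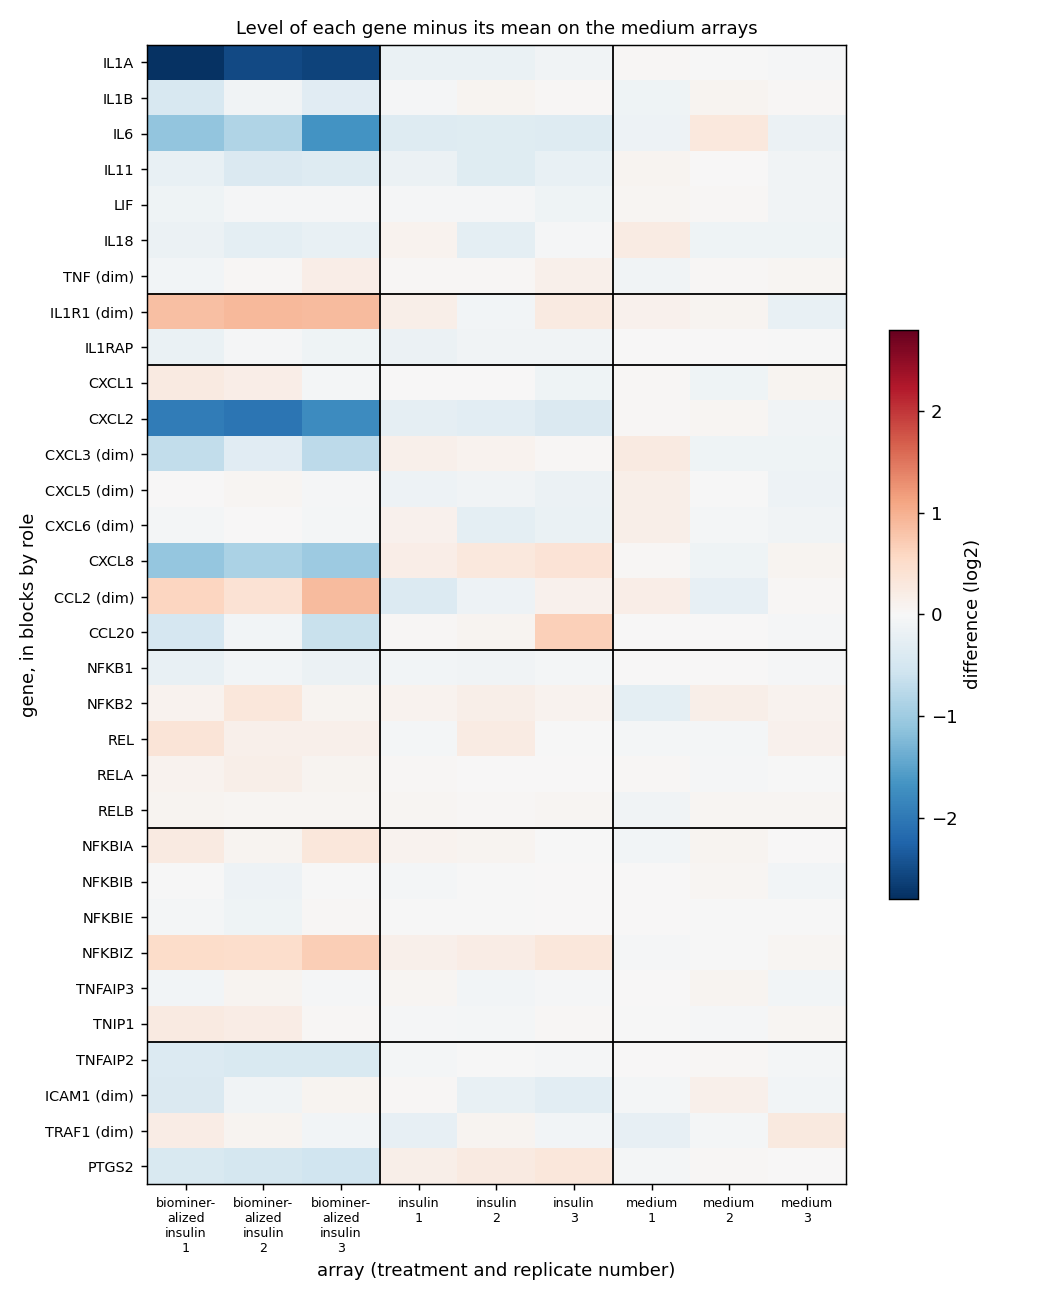
Heat map of the level of each gene on each array minus its mean on the 3 medium arrays (log2, colour bar), with arrays in columns by treatment and replicate number and genes in rows, in blocks by role; dim marks genes below the brightness filter. The deepest blue cells are IL1A and CXCL2 on all 3 biomineralized insulin arrays, followed by IL6 and CXCL8, while IL1R1, CCL2 and NFKBIZ are red there on the deposited scale.

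The regulatory sequence ahead of several of the genes is shown because genes that share one motif differed in response. RefSeq promoters of build GRCh38.p14 were available for 28 of the 33 genes, with 44 start sites, and the 250 bases upstream of each start were searched on both strands for 3 short forms chosen with textbook sites in mind. They were a kappaB form GGANNTTCC, a core of the sites that NF-kB dimers are known to bind, an AP-1 form TGANTCA, bound by JUN and FOS dimers, and an ATF4 form TGATGNAA. No match of one form overlapped a match of another in these genes. The kappaB form stood ahead of 16 of the 44 starts, against 3.84% of 35116 windows of the same length over all genes. Those starts belong to 16 of the 28 genes. The genes were listed for NF-kB signalling and the form follows known sites, so a higher share than over all windows follows from that choice. Some of the genes are related copies, CXCL1 and CXCL3 being identical at 81.4% of aligned columns of these stretches. The AP-1 form stood ahead of 5 starts, in 4 genes, against 6.57% of windows, and the ATF4 form ahead of no start, against 3.14%. A match describes letters only and is not a binding site. Below, capitals mark matches to the kappaB or AP-1 form. For IL1A the second of its annotated starts is shown (chr2:112784401-112784650, minus strand), with TGACTCA at 105 and TGAGTCA at 55 bases before the start and no kappaB form. CXCL1 (chr4:73869143-73869392, plus strand) and CXCL2 (chr4:74099196-74099445, minus strand) hold GGAATTTCC at 78 and 77 bases. CXCL8 (chr4:73740319-73740568, plus strand) holds the same letters at 91 bases after an AP-1 form at 137. NFKBIZ (first start, chr3:101827740-101827989, plus strand) holds them at 222 bases, while its second annotated start holds no kappaB form, and which start the cells used was not measured.
IL1A: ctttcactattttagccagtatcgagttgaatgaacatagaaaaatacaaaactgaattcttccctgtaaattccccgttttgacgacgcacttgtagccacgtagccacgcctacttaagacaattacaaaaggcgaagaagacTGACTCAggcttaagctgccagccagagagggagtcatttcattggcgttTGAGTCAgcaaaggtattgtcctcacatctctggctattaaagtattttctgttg
CXCL1: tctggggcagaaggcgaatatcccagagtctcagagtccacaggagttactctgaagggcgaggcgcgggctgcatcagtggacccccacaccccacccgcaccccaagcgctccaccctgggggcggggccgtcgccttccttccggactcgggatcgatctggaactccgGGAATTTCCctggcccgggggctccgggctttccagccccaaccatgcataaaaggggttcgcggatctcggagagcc
CXCL2: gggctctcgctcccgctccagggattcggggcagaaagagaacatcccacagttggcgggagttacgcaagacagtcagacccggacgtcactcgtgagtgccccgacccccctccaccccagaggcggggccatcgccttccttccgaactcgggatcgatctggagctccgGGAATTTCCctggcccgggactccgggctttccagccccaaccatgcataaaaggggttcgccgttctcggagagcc
CXCL8: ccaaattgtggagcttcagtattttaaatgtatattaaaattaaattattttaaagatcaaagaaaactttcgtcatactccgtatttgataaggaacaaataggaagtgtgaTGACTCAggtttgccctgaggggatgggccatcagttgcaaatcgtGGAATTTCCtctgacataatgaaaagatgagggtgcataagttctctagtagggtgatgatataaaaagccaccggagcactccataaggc
NFKBIZ: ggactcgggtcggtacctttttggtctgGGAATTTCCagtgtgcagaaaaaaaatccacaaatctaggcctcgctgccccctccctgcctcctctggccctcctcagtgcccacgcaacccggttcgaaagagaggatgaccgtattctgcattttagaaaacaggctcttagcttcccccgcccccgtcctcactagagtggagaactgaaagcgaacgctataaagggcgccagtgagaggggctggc

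These upstream stretches of CXCL1 and CXCL2 were identical at 70.4% of aligned columns, against 42.0% for CXCL2 and CXCL8. IL6 also holds a kappaB form (GGATTTTCC, 72 bases before its start), and NFKBIA holds 2, at 242 and 81 bases. The 4 genes that share GGAATTTCC in the printed set, NFKBIZ at its first start only, differ in response: with biomineralized insulin against medium, CXCL2 and CXCL8 fell, CXCL1 did not pass the test and NFKBIZ was higher (not called after spike-in centring).

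Among the cytokine genes, 5 of 6 tested were called lower with biomineralized insulin than in medium, beside 25.2% of all genes, and none was called higher, beside 25.7%. IL1A encodes interleukin 1 alpha, an alarm cytokine that acts through the interleukin 1 receptor. Its level was 4.75, 4.99 and 4.92 log2 on the biomineralized insulin arrays, against 7.31, 7.31 and 7.40 on the insulin arrays and 7.54, 7.51 and 7.48 on the medium arrays. Every biomineralized insulin array lay far below all others, and every insulin array lay slightly below every medium array. The biomineralized insulin mean of 4.89 lay near the brightness filter of 4.74, where the array limits what can be read. The difference from medium was -2.62 ± 0.07 log2 (SE, adjusted p = 3.5e-14), a level 0.162 times that in medium, and the difference from insulin was -2.46 ± 0.07 (adjusted p = 1.0e-13). The second annotated start of IL1A, shown above, has 2 AP-1 forms, and the first has 1. Neither has a kappaB form, and which start the cells used was not measured. The gene is covered by 1 probe set.

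IL6, the gene of the cytokine that drives the hepatic acute phase response, had 4.67, 4.94 and 4.11 log2 with biomineralized insulin, against 5.42, 5.43 and 5.42 with insulin and 5.64, 6.08 and 5.61 in medium. The groups did not overlap, biomineralized insulin being lowest and medium highest. The difference from medium was -1.20 ± 0.16 log2 (adjusted p = 1.1e-05) and that from insulin -0.85 ± 0.16 (adjusted p = 4.3e-04). The biomineralized insulin mean of 4.57 lay below the brightness filter, and a second, dim probe set of IL6 differed from medium by 0.08, so the probe sets disagree.

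IL1B, the gene of interleukin 1 beta, had 5.01, 5.37 and 5.15 log2 with biomineralized insulin, against 5.42, 5.53 and 5.50 with insulin and 5.35, 5.54 and 5.50 in medium. All biomineralized insulin arrays were below the insulin arrays, but one exceeded the lowest medium array. It fell by 0.29 ± 0.10 log2 against medium (adjusted p = 0.020) and by 0.31 ± 0.10 against insulin (adjusted p = 0.014). Without biomineralized insulin replicate 1 these were -0.20 (adjusted p = 0.11) and -0.23 (adjusted p = 0.081), and the difference from medium was -0.27 (adjusted p = 0.056) without biomineralized insulin replicate 3 and -0.25 (adjusted p = 0.078) without medium replicate 2.

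IL11, a relative of IL6 that signals through the same receptor subunit, had 4.96, 4.78 and 4.81 log2 with biomineralized insulin, against 5.26, 5.19 and 5.08 in medium. All biomineralized insulin arrays were below all medium arrays, and the difference was -0.33 ± 0.09 (adjusted p = 0.0058). Against insulin its difference of -0.09 did not pass (adjusted p = 0.43). IL18, an interleukin 1 family cytokine, differed from medium by -0.22 ± 0.09 (adjusted p = 0.049). That call was lost in 10 of 17 alternative settings. Among them were the fits without biomineralized insulin replicate 1, 2 or 3 (-0.24, -0.19 and -0.22, adjusted p = 0.076, 0.16 and 0.088) and without medium replicate 1 (-0.11, adjusted p = 0.29). The only probe set of IL18 is of a kind that may read other transcripts too. LIF, another IL6 family cytokine, lay between 7.20 and 7.39 on all 9 arrays and passed in no comparison. TNF lay between 3.05 and 3.34 on all arrays, at the dim end of the scale, and was not called.

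**Figure D2:**
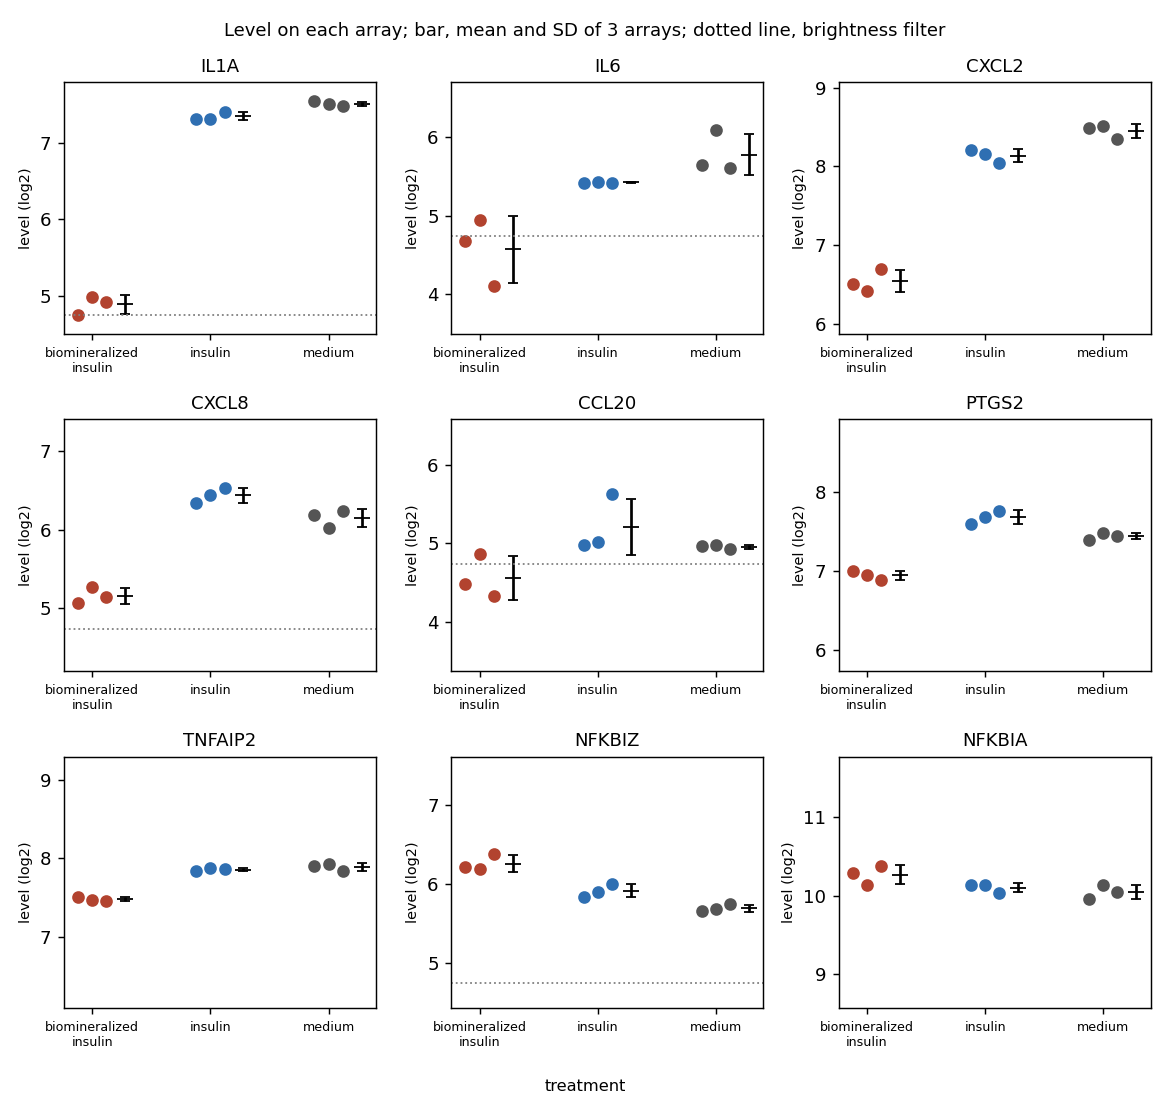
Level in log2 (vertical axes) of 9 genes on each of the 9 arrays by treatment (horizontal axes); points are arrays, bars beside them are the mean and SD of 3 arrays, and the dotted line is the brightness filter at 4.74. IL1A, IL6, CXCL2, CXCL8, CCL20, PTGS2 and TNFAIP2 have all biomineralized insulin arrays below the others, and NFKBIZ has them above on the deposited scale.

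The interleukin 1 receptor genes did not move together. IL1R1 encodes the signalling receptor for IL1A and IL1B and lay below the brightness filter, with 5.25, 5.31 and 5.29 log2 with biomineralized insulin, against 4.55, 4.31 and 4.65 with insulin and 4.52, 4.47 and 4.19 in medium. All biomineralized insulin arrays were above all others, while insulin and medium overlapped. In the fit without the filter, in which 34.3% of 18132 genes were called against medium (17.6% higher and 16.7% lower), 29.4% against insulin (14% higher and 15.4% lower) and 1.17% between insulin and medium, it was higher by 0.89 ± 0.11 (adjusted p = 3.6e-06) and 0.77 ± 0.11 (adjusted p = 2.1e-05). A second dim probe set of the gene differed from medium by 0.10. IL1RAP, the co-receptor, had 9.68, 9.82 and 9.73 with biomineralized insulin, against 9.70, 9.76 and 9.75 with insulin and 9.86, 9.86 and 9.85 in medium. Both treated groups were slightly below medium on every array, with differences of -0.12 ± 0.04 log2 for biomineralized insulin (adjusted p = 0.026) and -0.12 ± 0.04 for insulin (adjusted p = 0.14). The call for biomineralized insulin was lost in 7 of 18 alternative settings. Among them were the fits without biomineralized insulin replicate 1 (-0.08, adjusted p = 0.13) or 3 (-0.11, adjusted p = 0.069) and without medium replicate 1 (-0.11, adjusted p = 0.058) or 2 (-0.11, adjusted p = 0.067). Between biomineralized insulin and insulin, IL1RAP differed by 0.00 (adjusted p = 0.94), and spike-in centring made that -0.38.

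Of the chemokine genes, 3 of 4 tested were called lower against both medium and insulin, beside 25.2% and 23.3% of all genes. The other 4 of the 8 were dim, and in the fit without the filter CXCL3 was lower, CCL2 higher and CXCL5 and CXCL6 not called. CXCL2 encodes a neutrophil attractant of the ELR group and had 6.51, 6.42 and 6.70 log2 with biomineralized insulin, against 8.21, 8.15 and 8.05 with insulin and 8.49, 8.52 and 8.35 in medium. The 3 groups were fully separated, in the same order as for IL6. Its difference was -1.91 ± 0.07 against medium (adjusted p = 2.8e-12, a level 0.266 times that in medium) and -1.60 ± 0.07 against insulin (adjusted p = 3.8e-11), and its second probe set gave -2.01 and -1.77. The difference of insulin from medium was -0.32 ± 0.07 (adjusted p = 0.031). That call was lost in 9 of 18 alternative settings. Among them were the fits without insulin replicate 1 (-0.36, adjusted p = 0.052) or 3 (-0.27, adjusted p = 0.18) and without medium replicate 1 (-0.30, adjusted p = 0.086) or 2 (-0.29, adjusted p = 0.14).

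CXCL8, the gene of interleukin 8, had 5.07, 5.27 and 5.14 log2 with biomineralized insulin, against 6.34, 6.44 and 6.53 with insulin and 6.19, 6.02 and 6.23 in medium. Here insulin was the highest group and biomineralized insulin the lowest, without overlap. The difference was -0.99 ± 0.08 against medium (adjusted p = 4.9e-08) and -1.28 ± 0.08 against insulin (adjusted p = 3.3e-09), while 2 dimmer probe sets gave -0.19 and -0.18 against medium. The probe set behind these values is of a kind that may read other transcripts too. Insulin exceeded medium by 0.29 ± 0.08, which did not pass (adjusted p = 0.084).

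CCL20, an attractant of CCR6-bearing lymphocytes, had 4.49, 4.87 and 4.33 log2 with biomineralized insulin, against 4.98, 5.02 and 5.62 with insulin and 4.97, 4.97 and 4.92 in medium. All biomineralized insulin arrays were below all others, and 1 insulin array stood well above its group. The gene fell by 0.65 ± 0.15 against insulin (adjusted p = 0.0024) and by 0.39 ± 0.15 against medium (adjusted p = 0.042), with a biomineralized insulin mean of 4.56 below the filter. The call against medium was lost in 8 of 17 alternative settings. Among them were the fits without biomineralized insulin replicate 1 (-0.36, adjusted p = 0.12) or 3 (-0.28, adjusted p = 0.19), without medium replicate 1, 2 or 3 (-0.39, -0.38 and -0.41, adjusted p = 0.082, 0.0997 and 0.066), and with the replicate block (-0.39, adjusted p = 0.051).

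CXCL1, the close relative of CXCL2 printed above, had 6.59, 6.51 and 6.26 log2 with biomineralized insulin, against 6.33, 6.34 and 6.21 with insulin and 6.36, 6.22 and 6.42 in medium. The groups overlapped, and the differences of 0.12 ± 0.09 from medium (adjusted p = 0.25) and 0.16 ± 0.09 from insulin (adjusted p = 0.15) did not pass. With spike-in centring CXCL1 was at -0.28 against medium (adjusted p = 0.028), and without biomineralized insulin replicate 3 it was called higher, at 0.22 (adjusted p = 0.041) against medium and 0.25 (adjusted p = 0.023) against insulin. CXCL1, CXCL2 and CXCL3 are closely related copies, and how far their probe sets read each other's messages was not tested. CXCL3, a dim gene, had 3.92, 4.27 and 3.86 with biomineralized insulin, against 4.74, 4.70 and 4.63 with insulin and 4.85, 4.47 and 4.48 in medium, below both groups on every array. Without the filter it was at -0.58 ± 0.12 against medium (adjusted p = 8.9e-04) and -0.68 ± 0.12 against insulin (adjusted p = 2.8e-04), and a second probe set gave -0.69 and -0.68. CCL2, the monocyte attractant MCP1, went the other way: it had 4.81, 4.62 and 5.09 with biomineralized insulin, against 3.84, 4.06 and 4.34 with insulin and 4.41, 3.98 and 4.25 in medium. All biomineralized insulin arrays exceeded all others, by 0.63 ± 0.14 against medium (adjusted p = 0.0019) and 0.76 ± 0.14 against insulin (adjusted p = 4.2e-04) without the filter. CXCL5 and CXCL6, further neutrophil attractants, stayed between 2.67 and 3.24 on all arrays and were not called.

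The NF-kB subunit genes moved little. NFKB1, which encodes p50 and its precursor, had 8.90, 9.03 and 8.94 log2 with biomineralized insulin, against 9.04, 9.01 and 9.05 with insulin and 9.12, 9.13 and 9.08 in medium. It was below every medium array but overlapped insulin, with differences of -0.15 ± 0.04 (adjusted p = 0.0074) and -0.08 ± 0.04 (adjusted p = 0.17). RELA, which encodes the main activating subunit, had 8.94, 9.01 and 8.91 with biomineralized insulin, against 8.88, 8.85 and 8.86 with insulin and 8.88, 8.82 and 8.83 in medium. It was above both groups on every array, by 0.11 ± 0.04 against medium (adjusted p = 0.043) and 0.09 ± 0.04 against insulin (adjusted p = 0.093), but spike-in centring turned both to -0.29. The RELA call against medium was also lost in 9 of 17 alternative settings. Among them were the fits without biomineralized insulin replicate 1 (0.12, adjusted p = 0.066) or 2 (0.08, adjusted p = 0.17) and without medium replicate 2 (0.10, adjusted p = 0.12) or 3 (0.10, adjusted p = 0.090). The probe set behind the RELA values is of a kind that may read other transcripts too, and dimmer probe sets gave 0.12 and 0.00 against medium. REL had a difference of 0.22 ± 0.09 from medium (adjusted p = 0.062), which passed without medium replicate 3 (0.28, adjusted p = 0.028), and NFKB2 and RELB had 0.17 ± 0.11 and 0.05 ± 0.07 (adjusted p = 0.22 and 0.56). Spike-in centring put all 3 below 0, at -0.19, -0.24 and -0.35, and called RELB (adjusted p = 0.0081). Against insulin REL was at 0.16 (adjusted p = 0.17), and at 0.25 (adjusted p = 0.049) without insulin replicate 2.

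**Figure D3:**
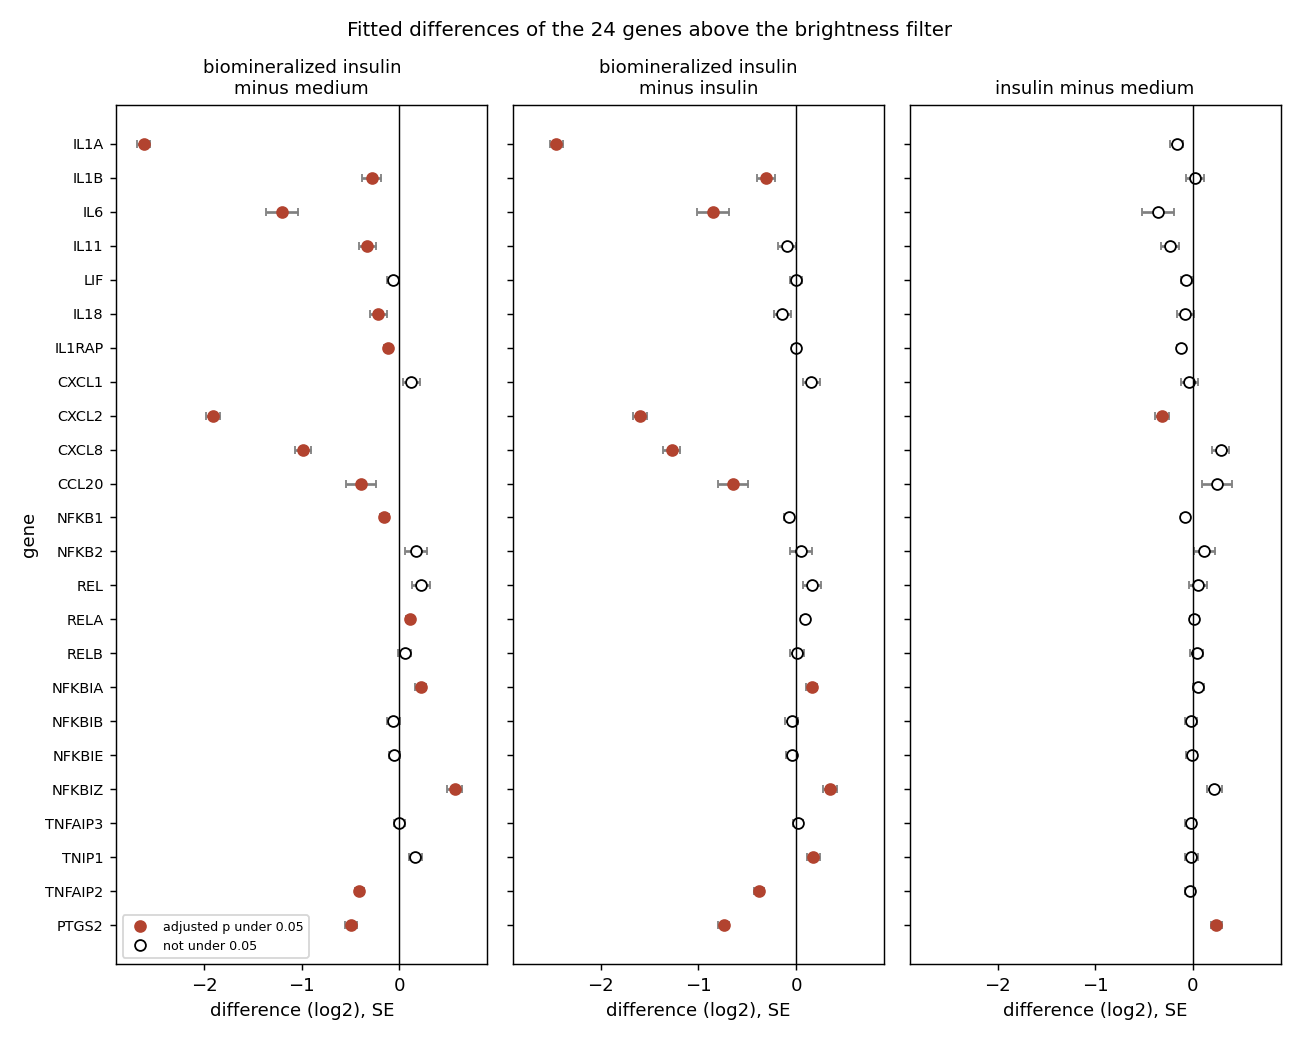
Fitted difference in log2 (horizontal axes, bars are SE) of the 24 genes above the brightness filter (rows) for biomineralized insulin minus medium, biomineralized insulin minus insulin and insulin minus medium; filled points have an adjusted p under 0.05. IL1A (-2.62 and -2.46) and CXCL2 (-1.91 and -1.60) lie farthest to the left in the first and second panels, and no point of the insulin panel lies beyond -0.36 or 0.29.

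Of the 6 inhibitor and feedback genes, 2 were called higher against medium (beside 25.7% of all genes) and 3 against insulin (beside 21.1%). None was called lower, on the deposited scale and with the brightest probe set of each gene. Spike-in centring left none of the 6 called higher. NFKBIZ encodes IkB zeta, a nuclear IkB protein that NF-kB induces and that, in mouse macrophages, is needed for a later wave of targets including IL6. Its level was 6.21, 6.19 and 6.38 log2 with biomineralized insulin, against 5.84, 5.89 and 6.005 with insulin and 5.66, 5.68 and 5.75 in medium. The groups were fully separated in the order opposite to that of IL6. It was higher by 0.57 ± 0.08 than in medium (adjusted p = 1.0e-05) and by 0.35 ± 0.08 than with insulin (adjusted p = 0.0013), but with spike-in centring these were 0.16 (adjusted p = 0.21) and -0.04 (adjusted p = 0.78). NFKBIA, the gene of IkB alpha and the classical feedback target, had 10.29, 10.13 and 10.37 with biomineralized insulin, against 10.14, 10.13 and 10.04 with insulin and 9.96, 10.13 and 10.05 in medium, so that 1 biomineralized insulin array lay within the range of the others. It was higher by 0.22 ± 0.06 against medium (adjusted p = 0.0040) and 0.16 ± 0.06 against insulin (adjusted p = 0.027), and spike-in centring made these -0.19 and -0.22. Its call against insulin was also lost in 4 of 18 alternative settings. Among them were the fits without biomineralized insulin replicate 1 (0.15, adjusted p = 0.091) or 3 (0.11, adjusted p = 0.16) and without insulin replicate 3 (0.13, adjusted p = 0.12).

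TNIP1, which encodes a partner of the A20 protein, differed by 0.18 ± 0.07 from insulin (adjusted p = 0.040) and by 0.16 ± 0.07 from medium (adjusted p = 0.051). The call against insulin was lost in 9 of 18 alternative settings, and spike-in centring gave -0.21. Among the 9 were the fits without biomineralized insulin replicate 1 (0.14, adjusted p = 0.16) or 2 (0.15, adjusted p = 0.12), without insulin replicate 1 (0.17, adjusted p = 0.097) or 2 (0.16, adjusted p = 0.11) and with the replicate block (adjusted p = 0.062). The difference from medium passed without biomineralized insulin replicate 3 (0.23, adjusted p = 0.011) or medium replicate 3 (0.19, adjusted p = 0.040). TNFAIP3, which encodes A20 itself, lay between 8.48 and 8.66 log2 on all 9 arrays and differed from medium by 0.00 ± 0.06 (adjusted p = 0.99). With spike-in centring it was called lower, at -0.40 (adjusted p = 3.0e-04). A second, dimmer probe set of TNFAIP3 gave 0.18 against medium and 0.20 against insulin, so the probe sets differ. Against insulin TNFAIP3 was called higher in 1 of 18 alternative settings and lower in 1, with spike-in centring (-0.37). NFKBIB and NFKBIE, further IkB genes, differed from medium by -0.06 ± 0.06 and -0.05 ± 0.06 (adjusted p = 0.45 and 0.47). Other probe sets of NFKBIB gave -0.38, -0.20 and 0.02 against medium, and -0.40, -0.19 and 0.02 against insulin. NFKBIB was called lower in 3 of 18 alternative settings in each of these comparisons.

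Of the remaining targets, PTGS2 encodes the inducible cyclooxygenase of prostaglandin synthesis. It had 7.005, 6.94 and 6.89 log2 with biomineralized insulin, against 7.60, 7.69 and 7.77 with insulin and 7.40, 7.48 and 7.45 in medium. As for CXCL8, insulin was highest and biomineralized insulin lowest, without overlap. The gene fell by 0.74 ± 0.06 against insulin (adjusted p = 3.6e-08) and by 0.50 ± 0.06 against medium (adjusted p = 2.7e-06), with -0.42 and 0.05 against medium from its other probe sets. Insulin was above medium by 0.24 ± 0.06 (adjusted p = 0.040), a call lost in 14 of 18 alternative settings. Among them were the fits without insulin replicate 2 or 3 (0.24 and 0.20, adjusted p = 0.071 and 0.22) and without medium replicate 1, 2 or 3 (0.22, 0.26 and 0.25, adjusted p = 0.11, 0.099 and 0.068). TNFAIP2, a TNF-induced gene, had 7.50, 7.46 and 7.46 with biomineralized insulin, against 7.84, 7.87 and 7.86 with insulin and 7.90, 7.92 and 7.83 in medium. Its differences were -0.41 ± 0.05 from medium (adjusted p = 3.2e-06) and -0.38 ± 0.05 from insulin (adjusted p = 9.7e-06), but with probe sets that may read other genes left out they were -0.16 (adjusted p = 0.31) and -0.07 (adjusted p = 0.69). ICAM1, an adhesion receptor for leukocytes, and TRAF1, an adaptor of TNF receptors, were dim, between 3.99 and 4.82 on all arrays, and not called.

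The other genes of the pathway were taken from lists of known components, and their counts are given for biomineralized insulin against medium, where 50.9% of all genes were called, on the deposited scale. Of 17 tested receptor and adaptor genes, 7 were higher and 2 lower with biomineralized insulin than in medium, with a median of 0.07 log2. TRAF3, an adaptor that restrains the alternative NF-kB pathway, was higher by 0.63 ± 0.05 (adjusted p = 1.9e-08), TRADD, the adaptor of TNF receptor 1, by 0.61 ± 0.06, and RIPK2, a kinase of NOD receptors, was lower, at -0.56 ± 0.06 (adjusted p = 4.5e-07). TNFRSF1A, which encodes TNF receptor 1, was at 0.29 ± 0.05 (adjusted p = 4.1e-05), less than the 0.40 by which spike-in centring lowers each difference and so below 0 under it. Of 27 kinase and ubiquitin enzyme genes, 6 were higher and 8 lower. TBK1, an IKK-related kinase, was at 0.53 ± 0.04 (adjusted p = 4.1e-08), and MALT1, a paracaspase that relays antigen receptor signals, at 0.48 ± 0.04, while TAB2, an adaptor of the kinase TAK1, was at -0.50 ± 0.04 (adjusted p = 5.5e-08), BIRC2, a ubiquitin ligase, at -0.39 ± 0.03 and RBCK1, of the linear ubiquitin ligase, at -0.70 ± 0.07. Of 21 other NF-kB targets, 3 were higher and 8 lower, with a median of 0.05. CD83, a membrane protein of activated dendritic cells, fell to 7.78 ± 0.04 log2 with biomineralized insulin, against 9.07 ± 0.04 in medium (SD, n = 3 each). Its difference was -1.29 ± 0.05 (SE, adjusted p = 1.1e-12), BMP2, a bone morphogenetic protein, was at -1.14 ± 0.03 and GADD45B, a stress-induced gene, at -0.91 ± 0.04, whereas F3, the gene of tissue factor, was higher by 0.68 ± 0.06 (adjusted p = 5.0e-08).

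The AP-1, ATF and MAPK list had 15 of 25 tested genes called, 6 higher and 9 lower. ATF3, a stress-induced transcription factor known to restrain inflammatory genes in mouse macrophages, had 5.61 ± 0.22 log2 with biomineralized insulin, against 8.63 ± 0.03 in medium (SD, n = 3 each). Its difference of -3.02 ± 0.08 (SE, adjusted p = 6.1e-14) exceeded that of IL1A in size. DUSP1, a phosphatase that shuts off MAP kinases, was at -0.35 ± 0.03 (adjusted p = 3.3e-07). In the list of cytokine messenger decay, 4 were higher and 4 lower of 13 tested, with ZC3H12C, a Regnase family gene, at -0.57 ± 0.06 and ZFP36L1, which binds AU-rich elements, at -0.31 ± 0.04, while CNOT7, a deadenylase, was at 0.35 ± 0.03, a difference that spike-in centring takes below 0. Of 10 tested genes of interleukin 1 processing, 3 were higher and 3 lower. CASP1, the protease that matures IL1B, was at 0.84 ± 0.13 (adjusted p = 3.4e-05) with a medium mean of 4.39, below the filter, and CAPN2, a calpain subunit of the family that cuts IL1A, was at 0.45 ± 0.03. HAX1, whose protein binds IL1A, was at -0.74 ± 0.04. In IL6 family signalling, 1 was higher and 5 lower of 13 tested, among them LIFR, the LIF receptor, at -0.52 ± 0.04 (adjusted p = 2.3e-08), the kinase gene PIM1 at -0.49 ± 0.05 and SOCS3, the feedback inhibitor of IL6 signalling, at -0.20 ± 0.07 (adjusted p = 0.018). Only 5 of the 17 acute phase genes with a probe set passed the filter, and 3 of them were called: CFB, complement factor B, at 0.86 ± 0.08, HAMP, the gene of hepcidin, at 0.38 ± 0.09, which spike-in centring takes below 0, and CEBPB, which encodes a transcription factor of the response, at -0.73 ± 0.04.

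**Figure D4:**
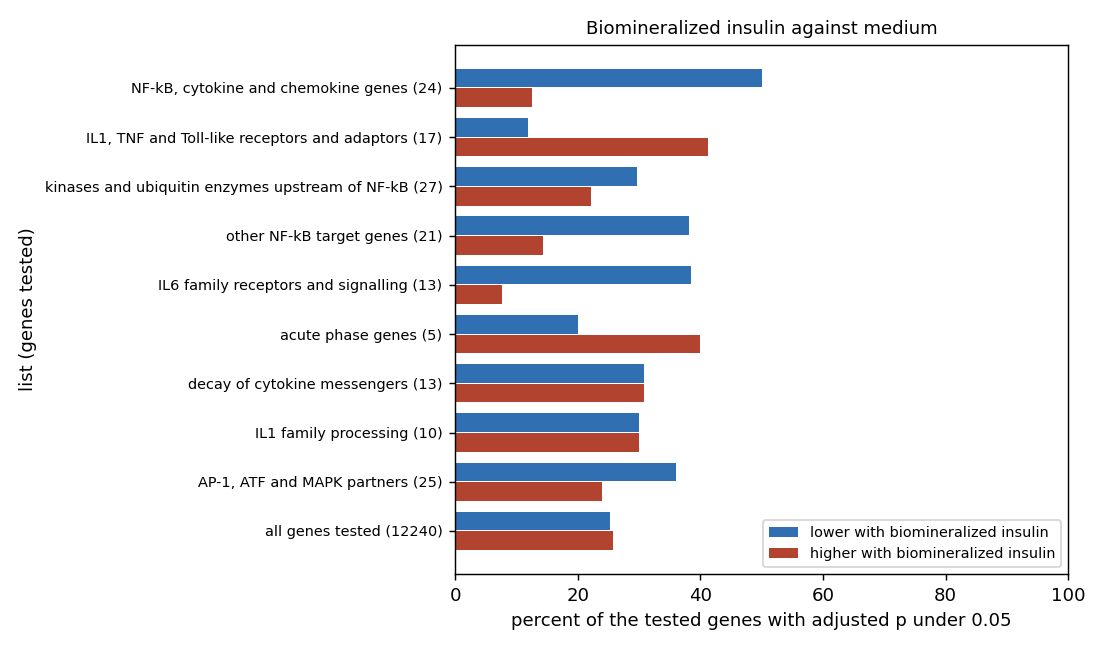
Percent of tested genes (horizontal axis, 0 to 100) called lower (blue) or higher (red) with biomineralized insulin than with medium at an adjusted p under 0.05, for the 24 NF-kB, cytokine and chemokine genes, each pathway list and all genes tested; the number of genes tested is given after each name. The 24 genes stand at 50% lower and 12.5% higher, and all genes tested at 25.2% and 25.7%.

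Against insulin, where 44.4% of all genes were called, the lists gave the following counts. The receptor list had 10 of 17 genes called (6 higher and 4 lower), the kinase list 13 of 27 (6 and 7), the other targets 10 of 21 (2 and 8) and the AP-1 list 15 of 25 (5 and 10). Decay genes had 5 of 13 called (2 and 3), interleukin 1 processing 4 of 10 (2 and 2), IL6 signalling 4 of 13 (1 and 3) and acute phase genes 2 of 5 (1 and 1). ATF3 was at -2.72 ± 0.08 and CD83 at -1.23 ± 0.05 in this comparison, and CYLD, a deubiquitinase that dampens NF-kB, at -0.59 ± 0.07 (adjusted p = 2.8e-06). With insulin against medium, 4 genes of all these lists were called, where 2.45% of all genes were: LTBR, the lymphotoxin beta receptor, at 0.24 ± 0.06 (adjusted p = 0.048), and BMP2 (-0.16), the kinase gene JAK1 (-0.17) and HAX1 (-0.15) below medium.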

How the data were processed

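Messenger RNA was measured on 9 one-colour Affymetrix arrays. The deposited values were used as log2 expression per probe set. They had near-identical distributions on all arrays. Which software the authors used to summarise and normalize them was not given in the sources. Per the labels' protocols, biotin-labelled cRNA was made with a 3' in vitro transcription kit. The platform annotation gave 1 gene symbol for 44988 of the 49395 probe sets, several for 1832 and none for 2473, with 102 control features besides, and symbols were brought up to date with the RefSeq table of GRCh38.p14.

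Each gene was represented by its brightest probe set with 1 gene, after the dimmest 40 percent of probe sets were left out. A linear model with the 3 groups and no replicate term was fitted to the 9 arrays together with limma 3.58.1 in R 4.3.3, with moderated variances that follow the mean level, and p-values were adjusted by Benjamini-Hochberg over all 12240 genes, with a call at an adjusted p under 0.05. The procedure was tested on simulated data. A level also depends on the probe set, so dim and bright refer only to the filter and to the order of values on the arrays. Every one of the 33 genes is named, with, from each pathway list, at most 5 called genes of lowest adjusted p per comparison, and the 3 brightest and any called genes of each marker list. The genes and lists were chosen with earlier results of these data known.

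Same-numbered arrays of different groups deviated from their group means with correlations between -0.23 and 0.17 over 9 pairs, and same numbers were therefore not treated as pairs. The number of arrays limits the precision, and detection calls were not used here. Figures were drawn with matplotlib 3.10.9.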

Additional observations from a re-analysis of the deposited data

Results flagged for a closer look

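The poly-A control transcripts spiked into the RNA, which the main comparisons of genes do not use, averaged 7.62 ± 0.16 log2 on the biomineralized insulin arrays, against 7.22 ± 0.07 on the medium arrays (SD, n = 3 each). The difference was 0.404, and the ranges of the 2 groups did not overlap. The exact permutation test, two-sided, gave p = 0.1, the lowest value possible here, or 0.343 after adjustment for 24 such tests. On the insulin arrays they averaged 7.23 ± 0.02.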

How the results depend on the processing

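The falls of IL1A, IL6, CXCL2, CXCL8 and PTGS2 with biomineralized insulin kept their direction and their call against both other groups under every alternative that gave them a value, including each array left out, except that PTGS2 against medium (a level 0.709 times that in medium) was not called at a 1.5-fold minimum. The counts of called genes moved as follows. For insulin against medium the main count of 2 became 1 with median centring, with only the 6 arrays of both groups, without the brightness filter and without probe sets that may read other genes. It became 0 with the replicate block, poly-A spike-in centring, the mean of the gene's probe sets, the probe set of largest variance, no intensity trend, an adjusted p under 0.01 or a 1.5-fold minimum, and ranged from 0 to 1 with 1 array left out. Without the brightness filter 213 genes in all passed for insulin against medium. For biomineralized insulin the count against medium was 15 and became 4 at 1.5-fold, and the count against insulin was 11 and became 6 at 1.5-fold and 20 with spike-in centring. With 1 array left out they ranged from 10 to 15 and from 8 to 12. With the replicate block the counts were 13 and 10. Spike-in centring turned CXCL1 (-0.28), REL (-0.19), RELA (-0.29), RELB (-0.35), NFKB2 (-0.24), NFKBIA (-0.19) and TNIP1 (-0.24) below 0 against medium. Against insulin it did so for IL1RAP (-0.38), CXCL1 (-0.23), REL (-0.22), NFKB2 (-0.34), RELA (-0.29), RELB (-0.37), NFKBIA (-0.22), NFKBIZ (-0.038), TNFAIP3 (-0.37) and TNIP1 (-0.21). TNIP1 was at -0.058 against insulin with the probe set of largest variance. Which scaling is the better one was not tested. Dim genes have values only without the filter. With biomineralized insulin, IL6 (mean 4.57), CCL20 (4.56), IL11 (4.85) and IL1A (4.89) lay near the filter, where the array limits what can be read.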
